A study of Mus musculus with 4 samples.

Results

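The genes described here make, carry and bind retinoids, the vitamin A compounds. They are Rbp4, Stra6, Rdh10, Dhrs3, Aldh1a1, Aldh1a2, Aldh1a3, Crabp1 and Crabp2, chosen by name as genes of retinoid synthesis, transport and binding, with every probe set of the array that is annotated to 1 of them alone. All 9 were measured, by 11 of the 22626 probe sets analysed, out of 12393 genes in all. Aldh1a3 had 3 probe sets and each of the other 8 genes had 1. Expression was measured in adult mouse testes with Affymetrix 430A oligonucleotide arrays, 4 in all, in a study of testes that receive transplanted germ cells. W/Wv males carry mutations of Kit, a receptor kinase gene, and their testes keep few germ cells; the labels give them as WB x B6 animals that were purchased. XX/Sry males have no Y chromosome of their own and develop testes through an Sry transgene; the sources used here do not give their strain. The study took whole testis and seminiferous tubules from each genotype. Collagenase (5 mg/ml, 37 °C, 40 min) and a 70 µm strainer were used to free the tubules of interstitial cells. By the Leydig cell markers given below, this removal was not complete in either genotype. Every group had 1 array and no replicate. The sources used here do not say how many animals an array holds or whether the preparations of a genotype share animals.

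Retinol travels in blood bound to the carrier protein RBP4 and can enter cells through the receptor STRA6. Inside the cell RDH10 oxidises retinol to retinal, DHRS3 reduces retinal back to retinol, and the retinal dehydrogenases ALDH1A1, ALDH1A2 and ALDH1A3 turn retinal into retinoic acid, which CRABP1 and CRABP2 bind. In the testis retinoic acid drives spermatogonia to differentiate and enter meiosis, and it is made by Sertoli cells and by germ cells.

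Values are MAS5 signals, a brightness on a linear scale that was scaled per array. Signals are given per genotype, and within a genotype whole testis comes before tubules. The array carries 27 control probe sets for the bacterial genes dap, lys, phe, thr and trpn, and the brightest of them on an array was taken as its background bound, 76.3 and 46.1 for W/Wv and 63.9 and 61.0 for XX/Sry. Where the dimmer signal of a ratio lies below its bound, the ratio is a lower limit ("at least"), formed from the brighter signal and the higher bound of the pair. A gene was called where it differed by at least 2-fold the same way in both pairs of arrays of a comparison. The genotype labels were checked on Xist, which read 131 and 76.7 for W/Wv against 3099 and 1002 for XX/Sry, and on the Y-linked gene Eif2s3y, at 795 and 580.3 against 9.5 and 28.2; Kit itself read 256 and 139 against 892.5 and 569. Of 23 measured Sertoli cell markers, 21 to 23 lay above the bound on each array. Over all probe sets the median log2 ratio of XX/Sry over W/Wv was -0.11 for whole testis and -0.02 for tubules, and it was -0.15 (W/Wv) and -0.03 (XX/Sry) for tubules over whole testis. Spike controls deviated from their mean over the arrays by a median of 0.46 (log2) on the array of W/Wv tubules and by -0.18 to -0.09 on the others. Precision is limited by there being 4 arrays, and in RNA of whole tissue fewer cells of a type and less RNA per cell cannot be told apart.

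In either comparison 8 of the 9 retinoid genes were not called. Of the 9, Rbp4, Rdh10, Dhrs3, Aldh1a1, Aldh1a2 and Aldh1a3 lay above the bound on all 4 arrays, Crabp1 on 2, Stra6 on 1 and Crabp2 on 0. In the genotype comparison 1 of 9 was called, Crabp1, lower in XX/Sry, where 3.22% of all genes were called lower. None of the 9 was called higher in XX/Sry, where 1.98% of all genes were. In the preparation comparison 1 of 9 was called, Dhrs3, lower in tubules, where 5.74% of all genes were called lower, and 0 of 9 were called higher, against 1.32%. The share of called genes that were higher moved with the scaling, from 38.0% to 48.8% after quantile normalisation for genotype, and from 18.6% to 31.7% after median centring and 33.3% after quantile normalisation for preparation. For genotype it was 60.6% after adding 50 to all signals, 66.4% where the brighter signal of each pair had to reach the median of its array and 61.3% with signals raised to the bound, so most calls were then higher in XX/Sry. Beside these backgrounds, 1 gene in 9 is not a result about the group. For XX/Sry over W/Wv the 9 genes had a median log2 ratio of -0.35 (whole testis) and -0.14 (tubules), beside -0.10 and 0.00 for all genes, and -0.28 in W/Wv and -0.07 in XX/Sry for tubules over whole testis, beside -0.15 and -0.02.

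The only error that the design allows came from fitting genotype and preparation, without an interaction, to log2 signals. This additive fit has 1 residual degree of freedom, takes the 4 arrays as independent and treats any interaction as error. If whole testis and tubules share animals, it measures no spread between animals. Standard errors and residual SDs given below are moderated by limma. They weigh 9.98 prior degrees of freedom, drawn from probe sets of similar brightness, against 1 of the probe set's own. Such an SD is that of 1 signal. The SD of a difference between arrays is larger, so a step past the residual SD is not thereby past the error. In limma, with Benjamini-Hochberg adjustment over 22626 probe sets, 0 of the 11 member probe sets passed an adjusted p under 0.05 for genotype, where 0.11% of all probe sets passed as higher and 0.0398% as lower, and 0 of 11 passed for preparation, where 0.239% passed as higher and 0.977% as lower. At an unadjusted p under 0.05 there were 1 for genotype and 2 for preparation, beside 8.74% and 13.9% of all probe sets. Crabp1 was the first, and Dhrs3 and Rdh10 were the others. The genotype and preparation comparisons use the same 4 arrays, so their values are not independent of each other.

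**Figure D1:**
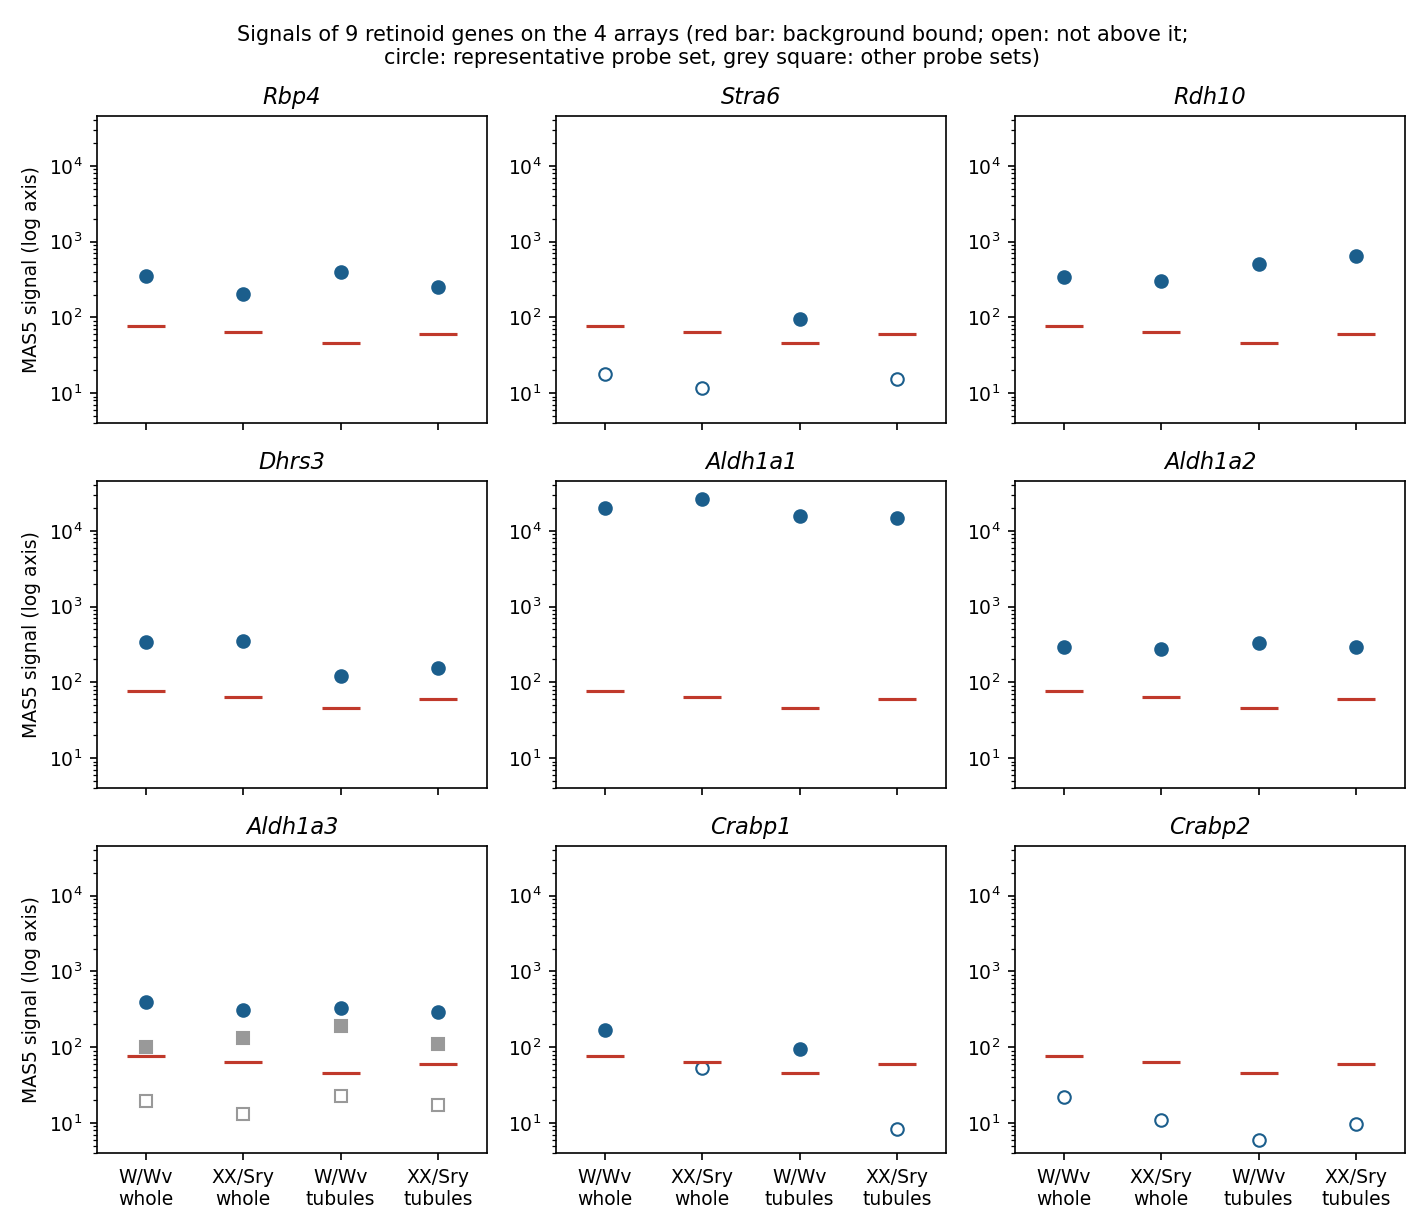
MAS5 signal (log axis) of the 9 retinoid genes on each array, with the background bound of that array as a red bar, open symbols where the signal is not above it, and grey squares for further probe sets of Aldh1a3. Dhrs3 is at 344 and 354 in whole testis against 120.3 and 153 in tubules, Crabp1 is above the bound on the W/Wv arrays only, and Crabp2 is above it on no array; signals of different genes come from different probes and are not comparable.

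The promoters of the 2 called genes are shown, with a search for the core sequence of retinoic acid receptors. RefSeq windows of the 250 bases before a start site (GRCm38.p6) were on hand for 6 of the 9 genes, Rbp4, Stra6, Dhrs3, Aldh1a1, Aldh1a2 and Crabp1, 13 windows in all, and not for Rdh10, Aldh1a3 and Crabp2. Capitals mark GGGCGG, the GC box bound by Sp1-type factors, on either strand, in the window of Crabp1 on the plus strand at chr9:54764498-54764747 and in the first of the 3 windows of Dhrs3 on the plus strand at chr4:144892577-144892826.
Crabp1: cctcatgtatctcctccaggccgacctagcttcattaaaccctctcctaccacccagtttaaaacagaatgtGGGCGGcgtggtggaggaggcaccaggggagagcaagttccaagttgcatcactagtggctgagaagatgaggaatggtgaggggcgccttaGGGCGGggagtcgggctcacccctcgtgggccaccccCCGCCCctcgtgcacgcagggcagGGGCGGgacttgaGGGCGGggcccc
Dhrs3: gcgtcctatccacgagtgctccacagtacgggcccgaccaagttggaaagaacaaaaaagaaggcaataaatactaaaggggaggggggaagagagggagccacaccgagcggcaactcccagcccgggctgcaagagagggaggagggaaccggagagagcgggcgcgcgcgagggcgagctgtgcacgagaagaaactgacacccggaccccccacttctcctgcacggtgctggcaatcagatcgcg
The Crabp1 window held 5 copies of GGGCGG and the Dhrs3 window 0, while 32.7% of all 32851 windows held at least 1. Hexamers of the core that retinoic acid receptors and other nuclear receptors bind were searched in the same way on both strands. The form AGGTCA was found in 14.0% of all windows, the form AGTTCA in 11.8%, the form GGGTCA in 11.6% and the form GGTTCA in 8.85%, and none of the 4 was in either printed window. Among the 13 windows of the retinoid genes, 2 held 1 such hexamer, GGGTCA in both, in 1 window of Aldh1a1 and 1 of Rbp4. Direct repeats of AGGTCA with 2 or with 5 bases between the copies were in none of the 13 windows and in 3 windows each of the whole set. TATAAA, the TATA box, was in 1 Rbp4 window and in 12.4% of all windows. A match is a run of letters, not a measured site.

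Rbp4, the plasma carrier of retinol, was dimmer in XX/Sry in both preparations without reaching 2-fold. Its probe set 1426225_at (gene on chromosome 19) read 355 and 398 for W/Wv and 206 and 250.4 for XX/Sry. Both W/Wv arrays were thus above both XX/Sry arrays. XX/Sry was lower by 1.73-fold for whole testis and 1.59-fold for tubules, and in the additive fit the difference was -0.73 on the log2 scale with a standard error of 0.35 (limma, adjusted p = 0.597). Under the other scalings and offsets tried, the 2 log2 ratios stayed between -0.79 and -0.58. Between preparations Rbp4 differed by 1.12-fold in W/Wv and 1.22-fold in XX/Sry, brighter in tubules each time. In the log2 order of the 4 arrays only the step from W/Wv whole testis to XX/Sry tubules, 0.50, exceeded the residual SD of 0.35. As this SD is that of 1 signal, the step is not thereby shown to exceed the error of a difference.

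Stra6, the retinol uptake receptor, was above background on a single array. Its probe set 1422723_at (chromosome 9) read 17.9 and 94.0 for W/Wv and 11.7 and 15.2 for XX/Sry, and only the 94.0 of W/Wv tubules was above its bound. For tubules, the XX/Sry signal was lower than that of W/Wv by at least 1.54-fold, and Stra6 was at least 1.23-fold higher in W/Wv tubules than in W/Wv whole testis. The bound on the W/Wv tubules array was also the lowest of the 4. The additive fit gave a genotype difference of -1.62 with a standard error of 1.04 (limma, adjusted p = 0.734).

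Rdh10, which makes retinal from retinol, was brighter in tubules than in whole testis in both genotypes, and past 2-fold in XX/Sry alone. Probe set 1426968_a_at (chromosome 1) read 341 and 499.6 for W/Wv and 299 and 651 for XX/Sry. Both tubule arrays lay above both whole testis arrays. The tubule signal was 1.47-fold higher in W/Wv and 2.18-fold higher in XX/Sry, a fitted difference of 0.84 with a standard error of 0.31 (limma, adjusted p = 0.260). The genotype ratio ran in opposite directions, with XX/Sry lower by 1.14-fold for whole testis and higher by 1.30-fold for tubules. Both whole testis arrays differed by less than the residual SD of 0.31, and the other steps in the order of the arrays, 0.38 and 0.55, were larger. As this SD is that of 1 signal, the steps are not thereby shown to exceed the error of a difference. Lists of tubule cell markers were also brighter in tubules in both genotypes. The summed signal of the 23 Sertoli cell markers was 147335 and 204804 for W/Wv and 152274 and 182099 for XX/Sry. On each array 21 to 23 of them lay above the bound, and 1 of 23 was called higher in tubules. That of the 10 peritubular myoid markers was 12408 and 19839 for W/Wv and 14803 and 20899.6 for XX/Sry. Of these, 8 to 10 lay above the bound and 1 of 10 was called higher. Endothelial markers, whose sums are given below, were brighter in tubules as well, with 2 of 11 called higher. Of all genes 1.32% were called higher in tubules. Between the tubule arrays the Sertoli cell sum was higher in W/Wv, and Rdh10 was higher in XX/Sry. The part of any of these cells in the Rdh10 difference was not tested.

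Dhrs3, which returns retinal to retinol and whose transcription retinoic acid is known to induce, was the retinoid gene called between preparations. Probe set 1448390_a_at (chromosome 4) read 344 and 120.3 for W/Wv and 354 and 153 for XX/Sry. Both whole testis arrays lay above both tubule arrays, and all 4 signals were above the bounds. Dhrs3 was 2.86-fold lower in W/Wv tubules and 2.32-fold lower in XX/Sry tubules, a fitted difference of -1.37 with a standard error of 0.40 (limma, adjusted p = 0.144). The log2 ratios were -1.52 and -1.21 on the deposited signals and -1.30 and -1.10 after median centring, and after adding 50 to all signals the XX/Sry ratio was -0.995, just short of 2-fold, which ended the call. Between genotypes Dhrs3 differed by 1.03-fold in whole testis and 1.27-fold in tubules, higher in XX/Sry. Both of these steps were smaller than the residual SD of 0.40, and the step between the preparations, 1.17 from W/Wv whole testis to XX/Sry tubules, was larger.

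Leydig cell and macrophage markers moved the same way as Dhrs3, and endothelial markers did not. The 9 measured Leydig cell markers, all above the bound on every array, summed to 54367 and 18184 for W/Wv and to 77753 and 33903 for XX/Sry, and 6 of 9 were called lower in tubules. The 13 macrophage markers, with 11 to 13 above the bound, summed to 24106 and 6585 for W/Wv and to 24253 and 5396 for XX/Sry, and 11 of 13 were called lower. The 10 adipocyte markers, with 5 to 8 above the bound, summed to 2083 and 972 for W/Wv and to 2984 and 1872 for XX/Sry, and 2 of 10 were called lower. The 11 endothelial markers, with 8 to 10 above the bound, summed to 1369 and 2345.6 for W/Wv and to 2044.6 and 2687 for XX/Sry. Of these, 2 of 11 were called higher in tubules and 0 lower. Of all genes 5.74% were called lower and 1.32% higher. Pecam1, an endothelial call, lay below the bound in whole testis, and was higher by at least 1.67-fold (W/Wv) and 1.30-fold (XX/Sry). When the brighter signal of each pair had to reach the median of its array, 6 Leydig cell and 10 macrophage markers stayed called lower. So did 1 adipocyte marker, and 1 endothelial marker stayed called higher, where 1.9% of all genes were called lower and 0.444% higher. No marker of these lists was listed at 0 on any array. The part of these cells in the Dhrs3 difference was not tested.

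**Figure D2:**
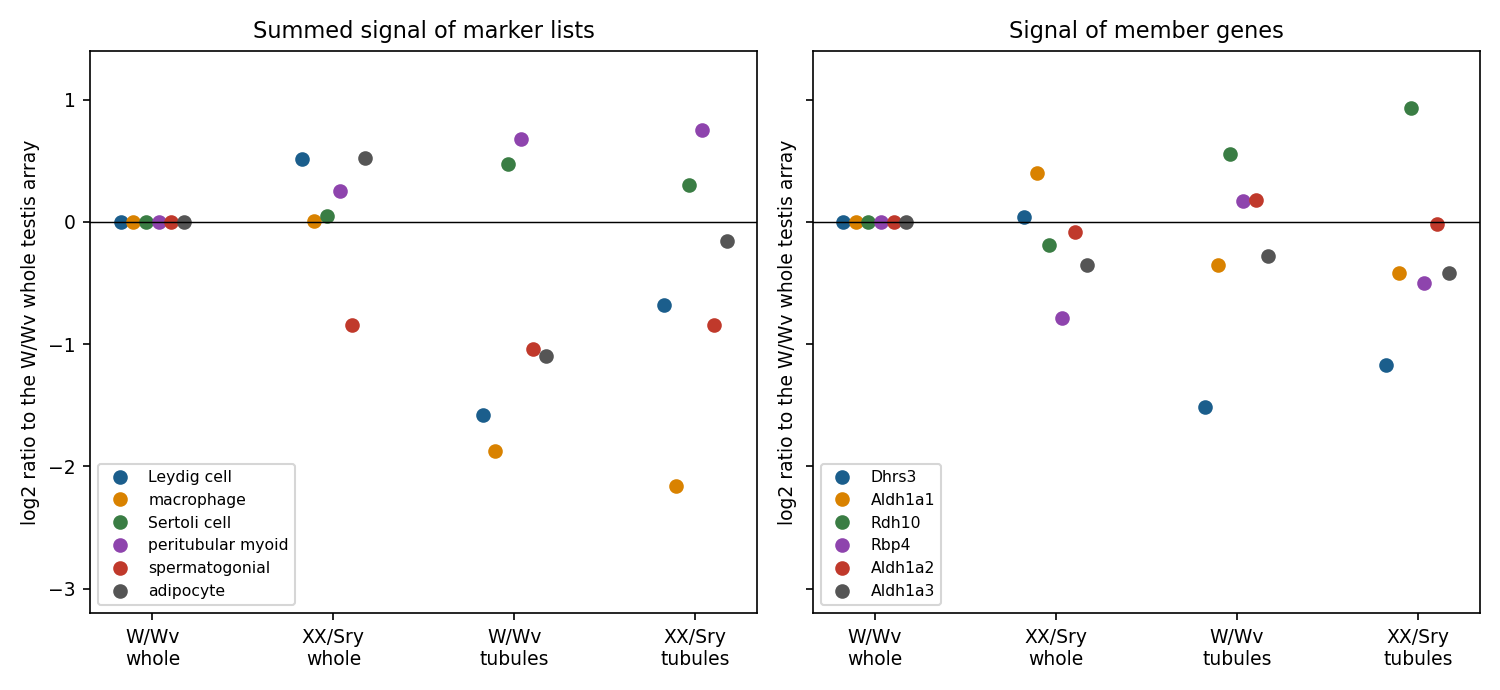
Log2 ratio of each array to the W/Wv whole testis array, for the summed signals of 6 marker lists (left) and for the 6 retinoid genes above the background bound on all arrays (right), 1 point per array. The Leydig cell and macrophage sums and Dhrs3 lie below 0 on both tubule arrays, and the Sertoli cell and peritubular myoid sums and Rdh10 lie above 0 there.

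Genes whose pattern over the 4 arrays was most like that of Dhrs3 and of Rdh10 were sought among the 8065 genes above the bound on all arrays, by the Euclidean distance between centred log2 signals. The nearest to Dhrs3 were Armcx2, Nxph3 and Cldn10, at distances of 0.07, 0.09 and 0.09. Armcx2 read 1128 and 396 for W/Wv and 1149 and 528 for XX/Sry. The nearest to Rdh10 were Bex4, Mttp and Tmem185b, at 0.08, 0.09 and 0.11. Bex4 read 2915 and 4333 for W/Wv and 2565 and 5271 for XX/Sry. With 4 arrays, likeness of this kind is a description only.

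None of the retinal dehydrogenases, which make retinoic acid, was called in either comparison. Aldh1a1 (probe set 1416468_at, chromosome 19), which is expressed in Sertoli and Leydig cells, read 19905 and 15601 for W/Wv and 26292 and 14942 for XX/Sry. Both whole testis arrays were above both tubule arrays, by 1.28-fold in W/Wv and 1.76-fold in XX/Sry (fitted difference -0.58 with a standard error of 0.34, limma, adjusted p = 0.487). Between genotypes XX/Sry was higher by 1.32-fold for whole testis and lower by 1.04-fold for tubules, and the latter log2 ratio turned from -0.062 to 0.086 after quantile normalisation. All 4 signals lay within 2-fold of each other, and both tubule arrays differed by less than the residual SD of 0.34.

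Aldh1a2 (1422789_at, chromosome 9), the retinal dehydrogenase of spermatocytes in the normal testis, read 294 and 333 for W/Wv and 277.5 and 290.5 for XX/Sry. Its whole range over the arrays was 0.26 on the log2 scale, less than the moderated residual SD of 0.34, and no order of the arrays is given. The 16 measured meiotic markers summed to 2993 and 1209 for W/Wv and to 1308 and 1361 for XX/Sry, and 11 and 8 of them lay above the bound for W/Wv and 6 and 8 for XX/Sry.

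Aldh1a3 (chromosome 7) was read by 3 probe sets that did not behave alike. The brightest, 1448789_at, read 395 and 326 for W/Wv and 309 and 295 for XX/Sry, within a log2 range of 0.42. A further probe set, 1417642_at, read 100.1 and 194 for W/Wv and 132 and 111 for XX/Sry. It was thus higher in XX/Sry by 1.32-fold for whole testis and lower by 1.74-fold for tubules, while the brightest was lower by 1.28-fold and 1.11-fold. The remaining one, 1427395_a_at, lay between 13.0 and 22.9, below the bound on every array. Averaging the 3 turned the log2 ratio of tubules over whole testis in W/Wv from -0.28 to 0.30. No direction is therefore given for Aldh1a3.

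Crabp1, a retinoic acid binding protein known from spermatogonia, was the retinoid gene called between genotypes. Probe set 1448326_a_at (chromosome 9) read 171 and 93.8 for W/Wv and 52.6 and 8.4 for XX/Sry. Both W/Wv signals were above the bound and both XX/Sry signals below it. The XX/Sry signal was lower by at least 2.24-fold for whole testis and by at least 1.54-fold for tubules. Against the bounds the call at 2-fold in both preparations therefore did not hold, nor did it hold when the brighter signal of each pair had to reach the median of its array, which was 157 to 183, as 0.339% of all genes were then called lower and 0.67% higher. The fitted difference was -2.59 with a standard error of 0.81 (limma, adjusted p = 0.349), from deposited signals that lie partly below background. Tubules were 1.82-fold lower than whole testis in W/Wv, and in XX/Sry both signals were below the bounds.

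Germ cell markers stood beside Crabp1 as follows. Of 12 measured spermatogonial markers, 12 and 9 lay above the bound for W/Wv and 5 and 6 for XX/Sry, and they summed to 4245 and 2065 for W/Wv and to 2367 and 2367 for XX/Sry. These sums include Kit, the gene mutated in W/Wv, at 256 and 139 for W/Wv and 892.5 and 569 for XX/Sry. The sums are therefore no measure of germ cells alone. Between genotypes 4 of the 12 were called lower in XX/Sry (Sall4, Lin28a, Ddx4 and Stra8) and 1 higher (Kit). Of all genes 3.22% were called lower and 1.98% higher. When the brighter signal of each pair had to reach the median of its array, 1 marker stayed called lower and 1 higher. The log2 ratio was above 0 for 1 of 12 in whole testis (median -2.17) and for 6 of 12 in tubules (median 0.05). Members of the list differed. Ddx4, a germ cell RNA helicase gene named here after its values were seen, read 305 and 69.2 for W/Wv and 0.9 and 1.8 for XX/Sry, above the bound on the W/Wv arrays and below it on the XX/Sry arrays, as Crabp1 did. Against the bounds Ddx4 was lower in XX/Sry by at least 3.99-fold for whole testis and at least 1.13-fold for tubules. Dazl, a germ cell RNA-binding protein gene, was above the bound on all 4 arrays, at 1087 and 510.0 for W/Wv and 509.6 and 432.9 for XX/Sry. Their part in the Crabp1 difference was not tested. Crabp2 (1451191_at, chromosome 3), the binding protein that delivers retinoic acid to its receptors, read 22.3 and 5.9 for W/Wv and 10.8 and 9.6 for XX/Sry, below the bound on every array, and no ratio is given.

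**Figure D3:**
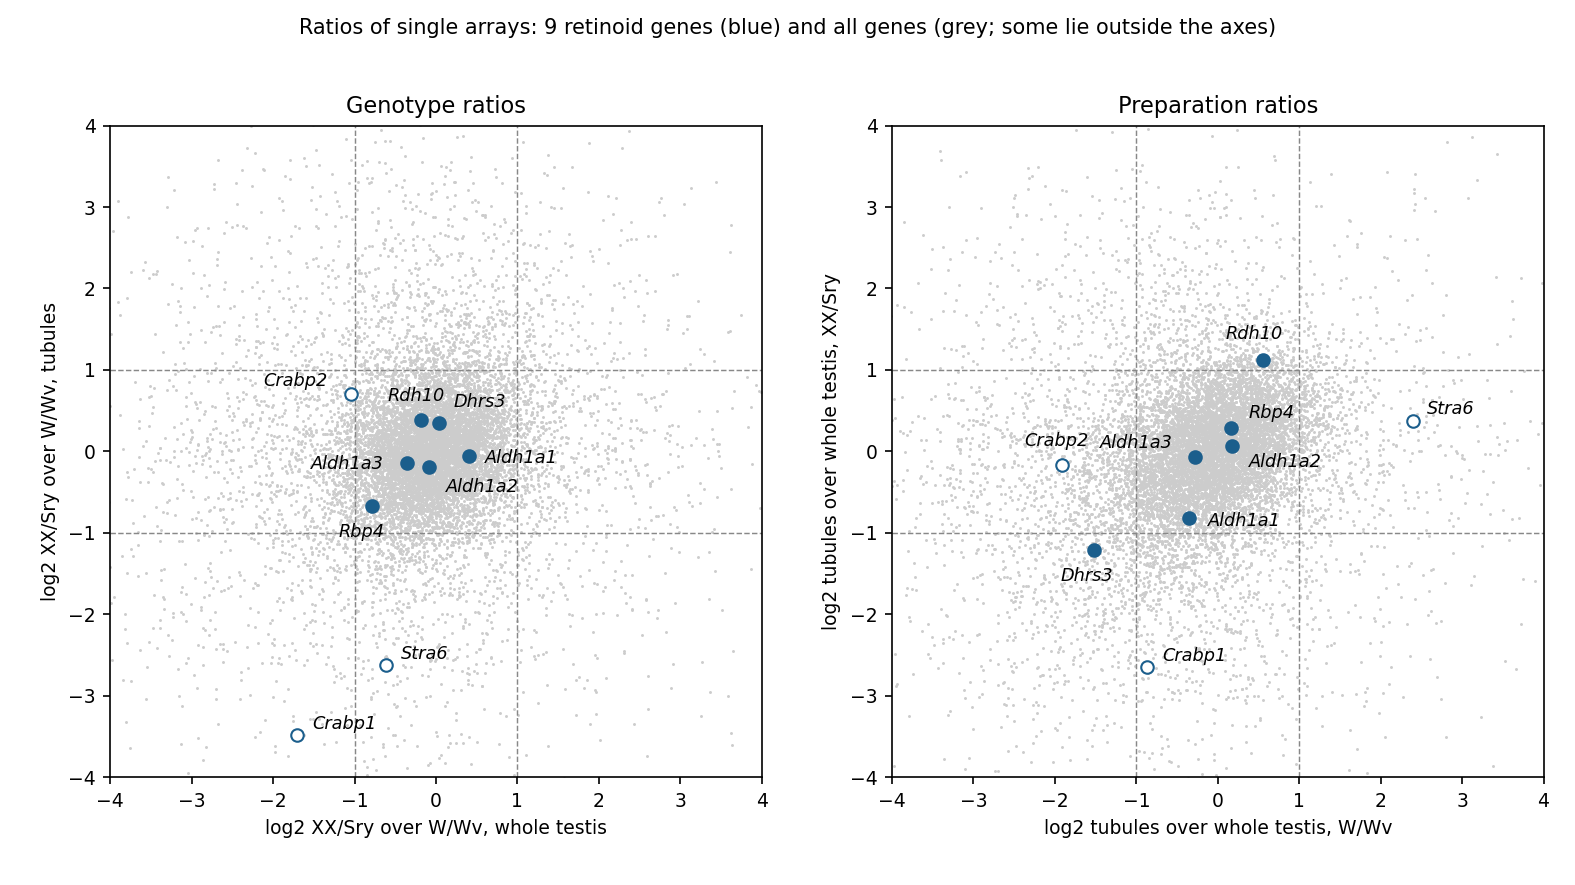
Log2 ratios of single arrays for the 9 retinoid genes (blue, open where fewer than 4 arrays were above the bound) over all genes (grey): XX/Sry over W/Wv in whole testis against tubules (left) and tubules over whole testis in W/Wv against XX/Sry (right), with dashed lines at 2-fold. Crabp1 lies past 2-fold on both axes of the left panel by its deposited signals, and Dhrs3 on both axes of the right panel.

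Of 58 further genes of the retinoid pathway, 47 were measured, 22 of them above the bound on all 4 arrays and 10 on none. Between genotypes 2 were called higher in XX/Sry (Rdh1 and Rdh11), 2 lower (Rdh12 and Stra8) and 43 neither, where 1.98% of all genes were called higher and 3.22% lower, and the median log2 ratio was 0.10 (whole testis) and 0.09 (tubules). Of those 4, Rdh11 alone stayed called under the same filter on dim signals. Between preparations 1 was called higher in tubules (Rxrg), 8 lower and 38 neither, where 1.32% of all genes were called higher and 5.74% lower, and the median log2 ratio was -0.54 (W/Wv) and -0.24 (XX/Sry). Of those 9, Adh1 and Rarres2, both lower, stayed called under the filter, with which 1.9% of all genes were called lower and 0.444% higher. In the additive fit 0 of 72 probe sets of these genes passed for genotype and 3 passed for preparation, 1 of Adh1 and 2 of Rarres2, all lower in tubules, where the shares of all probe sets were 0.11% higher and 0.0398% lower for genotype and 0.239% and 0.977% for preparation. At an unadjusted p under 0.05 there were 15 and 13 of the 72, beside 8.74% and 13.9% of all probe sets. The 15 for genotype hold more than 1 probe set each of Tgfbi, Rdh11 and Rarres2, so they are not independent. They also hold a probe set each of Ttr, Tgm2 and Stra8 that lay above the bound on 1 array only, and 1 of Rdh9 above it on 2.

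Rdh11, a microsomal retinal reductase, read 190.2 and 179 for W/Wv and 412 and 476 for XX/Sry, so that XX/Sry was higher by 2.16-fold and 2.66-fold (limma, adjusted p = 0.272). By its further probe set it was higher by 1.39-fold and 3.47-fold. Adh1, an alcohol dehydrogenase that oxidises retinol, read 2215 and 599 for W/Wv and 4329 and 942 for XX/Sry. It was 3.70-fold lower in W/Wv tubules and 4.59-fold lower in XX/Sry tubules (fitted difference -2.04 with a standard error of 0.24, limma, adjusted p = 0.00328), and XX/Sry was higher by 1.95-fold and 1.57-fold. The Leydig cell and macrophage sums given above moved with it between preparations. The Leydig cell sum also moved with it between genotypes. Of 9 markers, 8 in whole testis and 8 in tubules had a log2 ratio above 0. Of the 9, 2 were called higher in XX/Sry, where 1.98% of all genes were. The part of these cells in the Adh1 differences was not tested.

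Aldh1a7 is a close relative of Aldh1a1. It read 4170 and 2663 for W/Wv and 5416 and 808 for XX/Sry. In XX/Sry tubules it was 3.30-fold lower than in W/Wv tubules and 6.70-fold lower than in XX/Sry whole testis, against 1.04-fold and 1.76-fold for Aldh1a1 (Aldh1a7 over preparations in limma, adjusted p = 0.0745). The paralogs are alike in sequence. Whether the probe set of 1 also reads the other was not tested, so their separate values are uncertain.

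Among the carriers, receptors and degrading enzymes, Lrat, which esterifies retinol for storage, lay below the bound on every array, and the representative probe set of Ttr, the partner of RBP4 in plasma, lay above it on 3 arrays, with signals of 54.8 to 100. Cyp26b1 and Cyp26c1 were not analysed here. Cyp26a1, which degrades retinoic acid, read 59.0 and 62.1 for W/Wv and 40.4 and 109 for XX/Sry, above the bound on the tubule arrays. The W/Wv signals were close and their bounds unequal, so no ratio is given between them. In XX/Sry it was at least 1.71-fold higher in tubules. Of the receptors, Rara read 148 and 345 for W/Wv and 143 and 105 for XX/Sry. Rarg read 117 and 78.1 against 112 and 122, Rxra 316 and 223 against 339 and 66.7, and Rxrb 1175 and 982 against 948.5 and 1110.5. Rara and Rxra were 3.30-fold and 3.35-fold lower in XX/Sry than in W/Wv tubules and 1.03-fold lower and 1.07-fold higher in whole testis. A further Rxra probe set was at least 1.80-fold higher in XX/Sry tubules. Rarb was above the bound in XX/Sry tubules alone and Rxrg on the tubule arrays. Against the bounds Rxrg was higher in tubules by at least 1.06-fold in W/Wv and at least 1.09-fold in XX/Sry.

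Stra8, the meiotic entry gene that retinoic acid induces in germ cells, read 352 and 18.2 for W/Wv and 56.5 and 7.7 for XX/Sry, and only the 352 of W/Wv whole testis was above its bound. Against that array, XX/Sry whole testis and W/Wv tubules were each lower by at least 4.61-fold. Rec8, a meiotic cohesin gene that also answers to retinoic acid, was above the bound on the XX/Sry arrays alone, with 62.3 and 43.1 for W/Wv and 97.2 and 77.0 for XX/Sry. Against the bounds XX/Sry was higher by at least 1.27-fold for whole testis and at least 1.26-fold for tubules. Rarres2, the chemerin gene, read 1509 and 375 for W/Wv and 767.5 and 293 for XX/Sry, and was 4.02-fold lower in W/Wv tubules and 2.62-fold lower in XX/Sry tubules (limma, adjusted p = 0.0188). A further Rarres2 probe set was 2.21-fold and 4.12-fold lower (limma, adjusted p = 0.0348), and its remaining probe set did not pass (limma, adjusted p = 0.401).

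**Figure D4:**
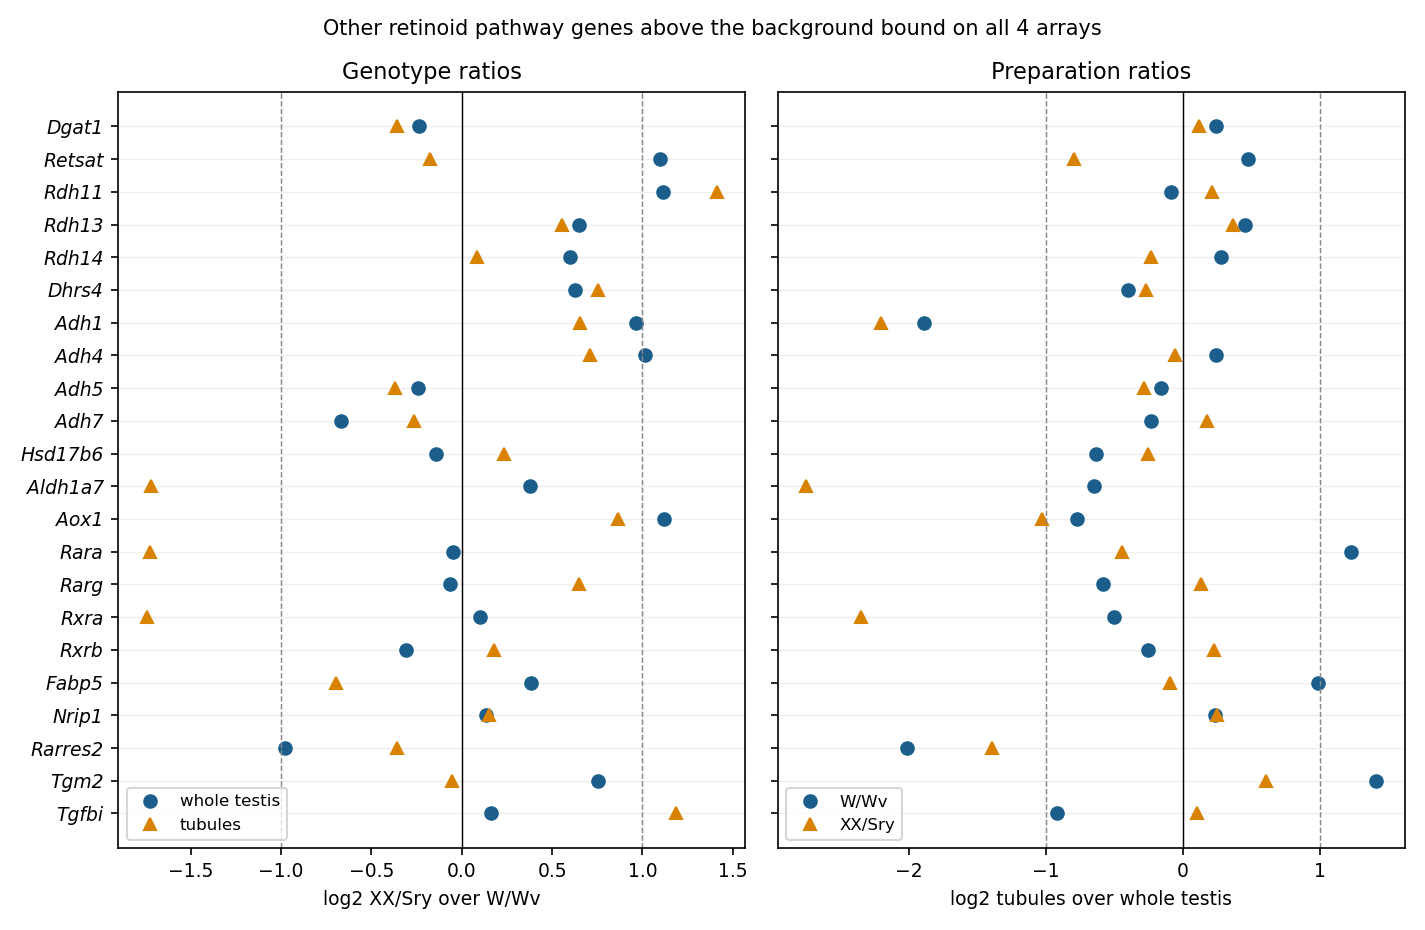
Log2 ratios of the 22 further retinoid pathway genes above the background bound on all 4 arrays: XX/Sry over W/Wv in whole testis (circles) and tubules (triangles) on the left, tubules over whole testis in W/Wv (circles) and XX/Sry (triangles) on the right, with dashed lines at 2-fold. Rdh11 lies past 2-fold in both preparations on the left, and Adh1 and Rarres2 in both genotypes on the right.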

How the data were processed

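RNA of 4 samples was hybridised for 16 hours to Affymetrix 430A arrays, 1 array per group. The deposited values are array intensity, MAS5 signals on a linear scale, made by the authors with MAS5 per the submitters' processing notes and Microarray Suite 5.0 per the labels. The sources used here give neither the scaling target nor detection calls. The mean signal without the lowest and highest 2% was 500.2 on each array. The signals were used as deposited. The 64 controls among the 22690 probe sets were left out, and 20380 of the rest had 1 gene symbol in the platform's annotation (691 several, 1555 none); 20351 matched RefSeq by Entrez identifier, which changed 0 symbols. A gene was represented by its probe set with the highest mean log2 signal. The rule for calls, 2-fold in both pairs, is that of the series' design text. The additive fit used limma 3.58.1 in R 4.3.3 (lmFit and eBayes with a trend, 9.98 prior degrees of freedom). On simulated data without an interaction it recovered 59.5% of genotype changes of 2 on the log2 scale and 84.5% of those of 4. The simulated noise was drawn with the moderated SDs, so these shares may be too high for the real data. They average over all brightness levels, while dim members had larger SDs (0.81 for Crabp1 and 1.04 for Stra6, against 0.31 for Rdh10). P-values measure no spread beyond that of these arrays, and most of the variance behind each comes from other probe sets of similar brightness. Named genes were all members, the pathway genes called with a filter on dim signals (the brighter signal of each pair at least the median of its array), fixed pathway partners of the members, and the 3 genes nearest in pattern to each member above the bound on all arrays with a log2 range of at least 1. The members and gene lists were chosen with earlier results of these data known. Alternatives were median centring, quantile normalisation, adding 50, the mean of all probe sets, a filter on dim probe sets, raising signals to the bound, 1.5-fold, and a fit without trend. No coordinates of genes are given, since the files name no build; promoter windows are those of RefSeq.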

Additional observations from a re-analysis of the deposited data

Results flagged for a closer look

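Some probe sets above the background bound on all 4 arrays ran in opposite directions in the 2 pairs of a comparison; with 1 array per group the difference between the pairs was not tested. For XX/Sry over W/Wv, the log2 ratio of Rdh10 was -0.19 (whole testis) and 0.38 (tubules), and that of Aldh1a1 was 0.40 and -0.062. The Aldh1a3 probe set 1417642_at had 0.40 and -0.80, and for tubules over whole testis it had 0.95 in W/Wv and -0.25 in XX/Sry; the brightest Aldh1a3 probe set did not do so.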

How the results depend on the processing

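The call of Crabp1 between genotypes was kept under median centring, quantile normalisation, an offset of 50 and the mean of all probe sets. The count of called members between genotypes became 0 under the filter on dim signals and 0 with signals raised to the background bound, and 3 at 1.5-fold (Rbp4, Stra6 and Crabp1, all lower). The call of Dhrs3 between preparations was kept under those scalings, the dim filter and the bound; the count of called members became 0 with an offset of 50 and 2 at 1.5-fold (Dhrs3 and Crabp1, both lower). For the pathway list, the genotype count of 4 became 0 with an offset of 50, 1 with the dim filter, 1 at the bound and 13 at 1.5-fold, and the preparation count of 9 became 2 with an offset of 50, 2 with the dim filter and 2 at the bound. In the additive fit 0 members passed under every alternative run; without the trend 0 probe sets of the whole array passed in either comparison (25 higher and 9 lower in XX/Sry and 54 higher and 221 lower in tubules with it, and 57, 19, 86 and 265 after quantile normalisation), and 1 member in each had an unadjusted p under 0.05. Over all genes, 644 were called between genotypes (109 with the offset, 125 with the dim filter, 155 at the bound, 1549 at 1.5-fold) and 874 between preparations (276, 291, 353 and 2124). Of the 36 log2 ratios of members, 6 changed sign under some alternative, none of them a called one. Each group has 1 array, so no replicate could be left out. The labels give no replicate numbers that pair arrays; the additive fit itself compares genotypes within preparations and preparations within genotypes. Signal over background limits Crabp1, Crabp2 and Stra6, for which most ratios are bounds or cannot be given.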
